A study of Homo sapiens with 9 samples.

Results

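The genes described here carry a numbered zinc finger symbol (ZNF followed by a number and at most 1 letter), lie on human chromosome 19 and were selected on a mean of at least 10 reads over 9 RNA-seq libraries of 786-O cells. The deposited table lists 61806 genes, of which 263 carry such a symbol on chromosome 19 and 145 reached the count minimum. 786-O is a line from a human clear cell renal carcinoma. The groups were 3 libraries labelled TRIM28 knockdown, 3 labelled PARP1 knockdown and 3 labelled wild type with a negative control reagent, also called parental in the protocol. The labels name the reagents as siRNA in some fields and shRNA in another, so the kind of reagent is uncertain, and all 9 libraries carry the same batch label. All groups are 1 cell line, and nothing in the labels says that replicates were separate cultures, so each p-value here covers the spread among these libraries alone, which may be technical.

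Most numbered ZNF proteins hold arrays of C2H2 zinc fingers, each a short loop held by a zinc ion that reads a few bases of DNA. Many of those encoded in the chromosome 19 clusters also carry a KRAB domain near the amino terminus. The KRAB A box binds TRIM28, a scaffold that brings the histone H3 lysine 9 methyltransferase SETDB1, HP1 proteins and the NuRD deacetylase complex to the DNA that the fingers recognise, often a transposable element. The 3′ ends of KRAB zinc finger genes themselves are known to carry TRIM28 and H3 lysine 9 trimethylation. PARP1 attaches ADP-ribose chains to itself and to other proteins at DNA breaks and in chromatin. The comparisons asked how the transcripts of these genes stood when either protein was depleted.

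Membership rests on the mean read count, so the levels of the members are a description. Mean counts ran from 10.1 to 829.6 with a median of 30.4, and 72 members were under 30 reads. Just inside the minimum lay ZNF497 (10.1 reads), ZNF888 (10.2) and ZNF600 (10.4), and just outside it ZNF417, ZNF100 and ZNF433, each at 9.89. The median over the members of the deposited FPKM, a level per exon length and library total averaged over the 9 libraries, was 0.312, against 2.25 over the 13562 genes tested, and 34 members reached 1. The 6 with the highest mean FPKM were ZNF787 (14.6), ZNF428 (11.8), ZNF581 (11.4), ZNF358 (7.44), ZNF576 (7.07) and ZNF526 (5.72). None of these 6 encodes a KRAB domain by the pattern used here.

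That pattern matched 16 fixed residues over 31 positions of the KRAB A box to the longest annotated protein of each gene, and 11 matches were required. It placed 115 members in the KRAB class, with 13 to 16 matches, and 29 in the class without KRAB, with 2 to 10, and ZNF702P has no annotated protein. Requiring 10 matches moved ZNF446 alone, and requiring 12 moved none. KRAB members held a median of 12 fingers and members without KRAB a median of 9. The classes also differed in transcript make-up, with median summed exon lengths of 6134 bases for KRAB members and 3763 bases for members without KRAB. Median GC contents were 42.3% and 60.9%, where the GC content of a gene is that of its longest annotated transcript.

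Promoter sequences of the members, from RefSeq (GRCh38.p14, 250 bases before to 50 bases after the start), were matched by symbol for 129 of the 145. Both strands were searched for GGGCGG (the GC box of Sp1-like factors), CCGGAA (the core of ETS factor sites), ATTGG (the CCAAT box read on the other strand) and TATAAA, whose matches can share end bases. CCGGAA was present in 57.4% of member promoters, against 17.6% of the 27058 promoters of the table. ATTGG was present in 55.0% against 35.7%, GGGCGG in 66.7% against 44.5%, and TATAAA in 2.33% against 12.01%. The 27058 promoters, 1 per gene, are not limited to genes tested here, whereas the members were selected on reads. Member promoters also had a higher median GC content (61.0% against 58.3%) and more CpG dinucleotides (median 21 against 14). The part of these differences in the motif shares was not tested. Within the members, CCGGAA was present in 63.7% of the 102 KRAB promoters and 33.3% of the 27 without KRAB, and ATTGG in 62.7% and 25.9%. The 300 bases of 4 promoters follow, because these genes were past the threshold in both knockdowns, ZNF653 and ZNF428 higher and ZNF45 and ZNF551 lower. GGGCGG and CCGGAA on either strand are in capitals, and a match is a description of letters and not a binding site. ZNF653 lies at chr19:11505790-11506089 (minus strand), ZNF428 at chr19:43619580-43619879 (minus), ZNF45 at chr19:43935233-43935532 (minus) and ZNF551 at chr19:57681727-57682026 (plus).
ZNF653: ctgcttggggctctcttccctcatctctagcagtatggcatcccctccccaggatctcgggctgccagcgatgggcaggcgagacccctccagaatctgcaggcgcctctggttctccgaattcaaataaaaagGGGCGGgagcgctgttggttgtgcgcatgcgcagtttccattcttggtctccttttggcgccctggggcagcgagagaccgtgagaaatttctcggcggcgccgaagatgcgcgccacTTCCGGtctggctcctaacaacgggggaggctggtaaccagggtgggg
ZNF428: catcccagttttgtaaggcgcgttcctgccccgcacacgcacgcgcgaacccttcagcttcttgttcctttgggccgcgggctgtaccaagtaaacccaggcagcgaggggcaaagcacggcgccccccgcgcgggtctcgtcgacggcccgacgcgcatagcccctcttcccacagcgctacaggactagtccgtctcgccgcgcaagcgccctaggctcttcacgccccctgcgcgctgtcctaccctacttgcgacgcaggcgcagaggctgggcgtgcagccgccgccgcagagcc
ZNF45: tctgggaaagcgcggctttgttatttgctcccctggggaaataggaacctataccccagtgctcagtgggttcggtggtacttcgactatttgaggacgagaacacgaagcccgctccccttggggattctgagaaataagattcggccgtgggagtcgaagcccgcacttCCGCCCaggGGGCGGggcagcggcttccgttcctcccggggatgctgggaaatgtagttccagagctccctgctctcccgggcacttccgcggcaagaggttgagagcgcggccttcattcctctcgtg
ZNF551: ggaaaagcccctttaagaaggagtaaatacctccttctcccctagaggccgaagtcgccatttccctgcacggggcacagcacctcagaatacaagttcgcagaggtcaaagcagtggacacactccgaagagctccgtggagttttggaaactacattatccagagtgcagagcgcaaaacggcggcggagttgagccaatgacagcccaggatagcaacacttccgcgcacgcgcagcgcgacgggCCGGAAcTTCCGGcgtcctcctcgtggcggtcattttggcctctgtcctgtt
The printed ZNF653 promoter holds 1 match of each motif, ZNF428 none, ZNF45 a pair of GGGCGG matches and ZNF551 a pair of CCGGAA matches. The GC contents of these windows were 61.3%, 68.7%, 60.0% and 57.0% in the same order.

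The libraries set limits that bear on every result. Total counts ran from 11963110 to 20224374, and all 145 members entered the fit of 13562 genes by edgeR's quasi-likelihood test, in which a gene passed when its Benjamini-Hochberg adjusted p over all 13562 was below 0.05. TRIM28 stood at 52.2 ± 7.33 CPM in TRIM28 knockdown, 15.1% of the control mean of 346 ± 33.0, and PARP1 at 5.52 ± 1.19 CPM in PARP1 knockdown, 3.11% of the control mean of 177 ± 23.7 (SD, n = 3). The libraries labelled TRIM28 knockdown held PARP1 transcripts at 93.8 ± 0.556 CPM, 52.9% of the control mean. This log2 fold change of -0.917 passed (adjusted p = 3.61e-05, edgeR). It was -0.595 with the length and GC trends described below removed, and passed there too. The part of this lower PARP1 level in the TRIM28 knockdown results was not tested. Each library's log2 levels, set against the mean over libraries, sloped with exon length, by -0.0244 to -0.00085 per doubling in TRIM28 knockdown, -0.167 to -0.0968 in PARP1 knockdown and 0.0725 to 0.203 in control. Control replicate 3 had the lowest of the control slopes. Over all genes tested, Spearman's rho of the log2 fold change with GC content was 0.424 in TRIM28 knockdown and 0.509 in PARP1 knockdown. For that reason the counts, the blocks and the named calls below are also given with the length and GC trends of each library removed, and the part of these trends in the results was not tested beyond that. Of 10 markers of renal epithelium and clear cell carcinoma 7 reached a mean FPKM of 1, and CA9 (0.84), PAX2 (0.81) and NDUFA4L2 (0.029) did not. Of 10 markers of other cell types only ACTA2 reached it (2.30), with PTPRC, CD3E and NPHS1 at 0.

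**Figure D1:**
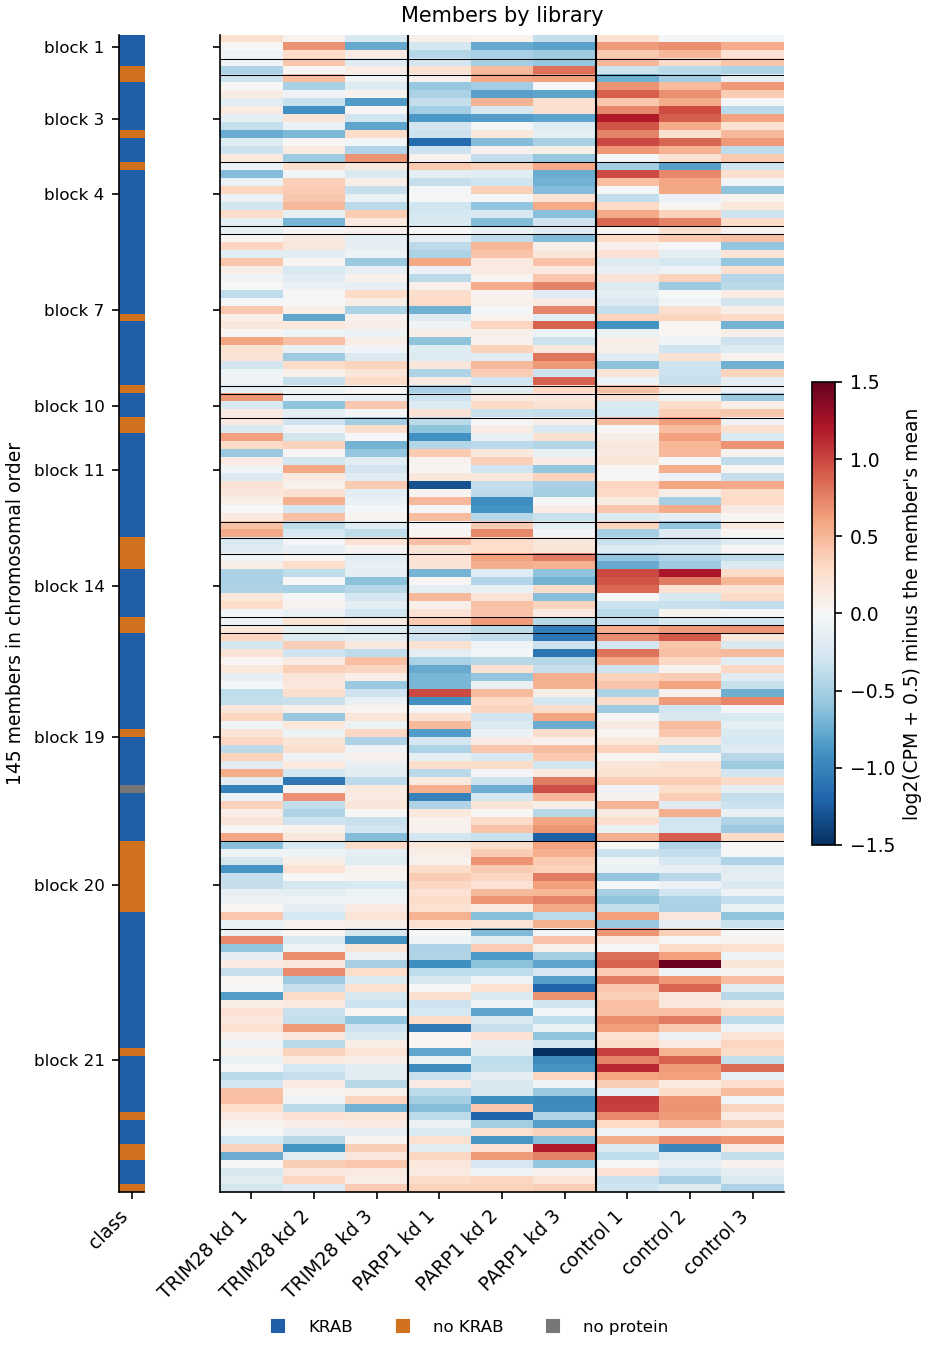
Heat map of the 145 members in chromosomal order (rows) in the 9 libraries (columns), coloured by log2(CPM + 0.5) minus the member's own mean, with the strip at the left giving the class and black lines parting the position blocks. Control replicates 1 and 2 are redder than control replicate 3 over many KRAB rows of blocks 3, 14 and 21, and the rows of block 20 are reddest in the PARP1 knockdown libraries.

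Summed over the KRAB members, the level was 331, 334 and 311 CPM in the TRIM28 knockdown libraries, 305, 309 and 307 CPM in PARP1 knockdown and 396, 385 and 342 CPM in control. Both knockdowns lay below every control library, and control replicate 3 lay nearest to them. The members without KRAB summed to 261, 288 and 291 CPM in TRIM28 knockdown, 333, 388 and 412 CPM in PARP1 knockdown and 237, 239 and 258 CPM in control, so that no knockdown library overlapped the control libraries in the other direction. Over all 145 members the sums were 606 ± 15.3, 686 ± 41.9 and 620 ± 17.2 CPM in TRIM28 knockdown, PARP1 knockdown and control (SD, n = 3). These sums are on the scale of TMM factors, which set the bulk of genes level between libraries. As shares of the raw counts the KRAB members took 0.0315% to 0.0335% in TRIM28 knockdown, 0.0260% to 0.0295% in PARP1 knockdown and 0.0367% to 0.0456% in control. The members without KRAB took 0.0265% to 0.0296% in TRIM28 knockdown, which overlapped the 0.0270% to 0.0277% in control, and 0.0321% to 0.0348% in PARP1 knockdown, which did not.

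In TRIM28 knockdown 20 members fell and 4 rose. The 4 that rose, ZNF653, ZNF428, ZNF576 and ZNF787, have no KRAB domain, and 18 of the 20 that fell are KRAB members. Those 18 were 15.7% of the KRAB members, slightly below the 17.5% of all genes tested that fell. Those 4 were 13.8% of the members without KRAB, against 10.3% of all genes tested that rose. The share of members past the threshold, 24 of 145, was below the 27.8% of all genes tested (10.3% higher and 17.5% lower), and the median member had 30.4 reads per library. The median log2 fold change was -0.11 over the members, against -0.02 over all genes tested. The TRIM28 knockdown and control libraries did not overlap in 45 of the 145 members, a smaller share than the 6295 of 13562 genes tested (46.4%). KRAB members had a median of -0.16, with 0 higher by edgeR (5 at an unadjusted p below 0.05, and 1 higher by DESeq2) and 97 not passing. Members without KRAB had a median of 0.15, or -0.0157 with raw library totals, with 4 higher, 2 lower and 23 not passing.

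The count depended on single libraries. Without control replicate 1 the members past the threshold were 4, ZNF45, ZNF266 and ZNF561 lower and ZNF653 higher. Without control replicate 2 they were 10, without TRIM28 knockdown replicate 2 they were 9, and without TRIM28 knockdown replicate 3 they were 12. In these 4 fits the KRAB members past the threshold were 3, 10, 9 and 9 in the same order, and the members without KRAB 1, 0, 0 and 3. ZNF45, ZNF266 and ZNF561 passed in each of the 9 fits that left out 1 library, and the other 21 did not. With length and GC trends removed 8 fell and 7 rose, of which 7 falls and no rise were among the 24: ZNF155, ZNF45, ZNF551, ZNF627, ZNF266, ZNF426 and ZNF317. In that fit 1442 of the 13390 tested genes with a GC content fell and 1494 rose. When raw library totals replaced the TMM factors, 23 fell and 0 rose.

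ZNF45, a KRAB member with 15 fingers, held 1.25, 1.35 and 1.69 CPM in TRIM28 knockdown, 0.994, 1.61 and 1.09 CPM in PARP1 knockdown and 4.28, 5.13 and 2.44 CPM in control. Every library of either knockdown was below every control library, and control replicate 3 was the lowest of the controls. The log2 fold change was -1.46 ± 0.33 in TRIM28 knockdown (SE, adjusted p = 0.00214, edgeR) and -1.68 ± 0.35 in PARP1 knockdown (adjusted p = 0.00017, edgeR), and with both trends removed -1.24 and -1.20, both still past the threshold. ZNF155, its neighbour in the same block, had 0.311, 0.638 and 0.241 CPM in TRIM28 knockdown, 0.662, 0.338 and 0.198 CPM in PARP1 knockdown and 1.68, 1.45 and 1.11 CPM in control. The groups did not overlap, and its log2 fold change of -1.87 ± 0.50 in TRIM28 knockdown (adjusted p = 0.00818, edgeR) was the lowest among the members there. ZNF230, beside them, fell in TRIM28 knockdown (-1.30 ± 0.40) at 0.717 to 0.784 CPM against 1.47 to 2.60 CPM in control, while its PARP1 knockdown value of -0.59 did not pass. Removal of both trends ended its TRIM28 knockdown call (-0.92, adjusted p = 0.0727, edgeR).

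ZNF266 held 2.61, 3.43 and 2.29 CPM in TRIM28 knockdown, 1.39, 1.44 and 1.48 CPM in PARP1 knockdown and 7.31, 5.91 and 4.70 CPM in control. The 3 groups did not overlap, with PARP1 knockdown lowest and control highest. Its log2 fold change was -1.11 ± 0.26 in TRIM28 knockdown (adjusted p = 0.00286, edgeR) and -2.05 ± 0.29 in PARP1 knockdown (adjusted p = 1.56e-06, edgeR). ZNF561 held 2.30, 2.71 and 2.59 CPM in TRIM28 knockdown, 0.927, 1.52 and 1.78 CPM in PARP1 knockdown and 5.82, 5.33 and 4.47 CPM in control. The same order held without overlap, at -1.04 ± 0.27 in TRIM28 knockdown and -1.91 ± 0.30 in PARP1 knockdown, and the TRIM28 knockdown call ended with both trends removed (-0.66, adjusted p = 0.055, edgeR). ZNF317, the most highly expressed KRAB member among the falls (mean FPKM 4.23), held 20.5, 18.3 and 19.7 CPM in TRIM28 knockdown, 13.4, 10.6 and 10.7 CPM in PARP1 knockdown and 35.6, 30.7 and 24.8 CPM in control. Its groups did not overlap either, with log2 fold changes of -0.64 ± 0.16 and -1.39 ± 0.17, both past the threshold with trends removed as well (-0.55 and -1.12).

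Of the remaining falls in TRIM28 knockdown that the naming rule took, ZNF551 stood at -1.31 ± 0.34, ZNF587 at -1.23 ± 0.45, ZNF304 at -1.20 ± 0.36, ZNF766 at -1.20 ± 0.45 and ZNF426 at -1.17 ± 0.29 on the log2 scale. ZNF304 is a KRAB protein known to bring a corepressor complex to tumour suppressor promoters in colorectal cancer cells. ZNF587 is known to bind endogenous retroviruses of the HERV-K group, and 12.4% of its 100-base transcript windows occur in another gene, mostly ZNF417, so its reads are uncertain. Removal of both trends ended the calls of ZNF304 (-0.96), ZNF587 (-0.84) and ZNF766 (-0.79), and ZNF551 (-1.03) and ZNF426 (-0.72) still passed.

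Among the rises, ZNF653, a zinc finger corepressor of the nuclear receptor SF-1, held 8.97, 11.4 and 10.5 CPM in TRIM28 knockdown, 12.7, 12.2 and 14.3 CPM in PARP1 knockdown and 6.54, 5.18 and 7.65 CPM in control. ZNF787 held 49.6, 49.9 and 49.7 CPM in TRIM28 knockdown, 63.9, 83.6 and 88.6 CPM in PARP1 knockdown and 34.4, 37.8 and 40.4 CPM in control. In neither gene did the knockdown libraries overlap the controls. The log2 fold changes in TRIM28 knockdown were 0.67 ± 0.19 for ZNF653, 0.59 ± 0.17 for ZNF428, 0.42 ± 0.16 for ZNF576 and 0.41 ± 0.14 for ZNF787. All 4 calls ended with both trends removed (0.41, 0.15, 0.38 and 0.28 in the same order), and 17.4% of the ZNF653 windows occur in another annotated gene.

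**Figure D2:**
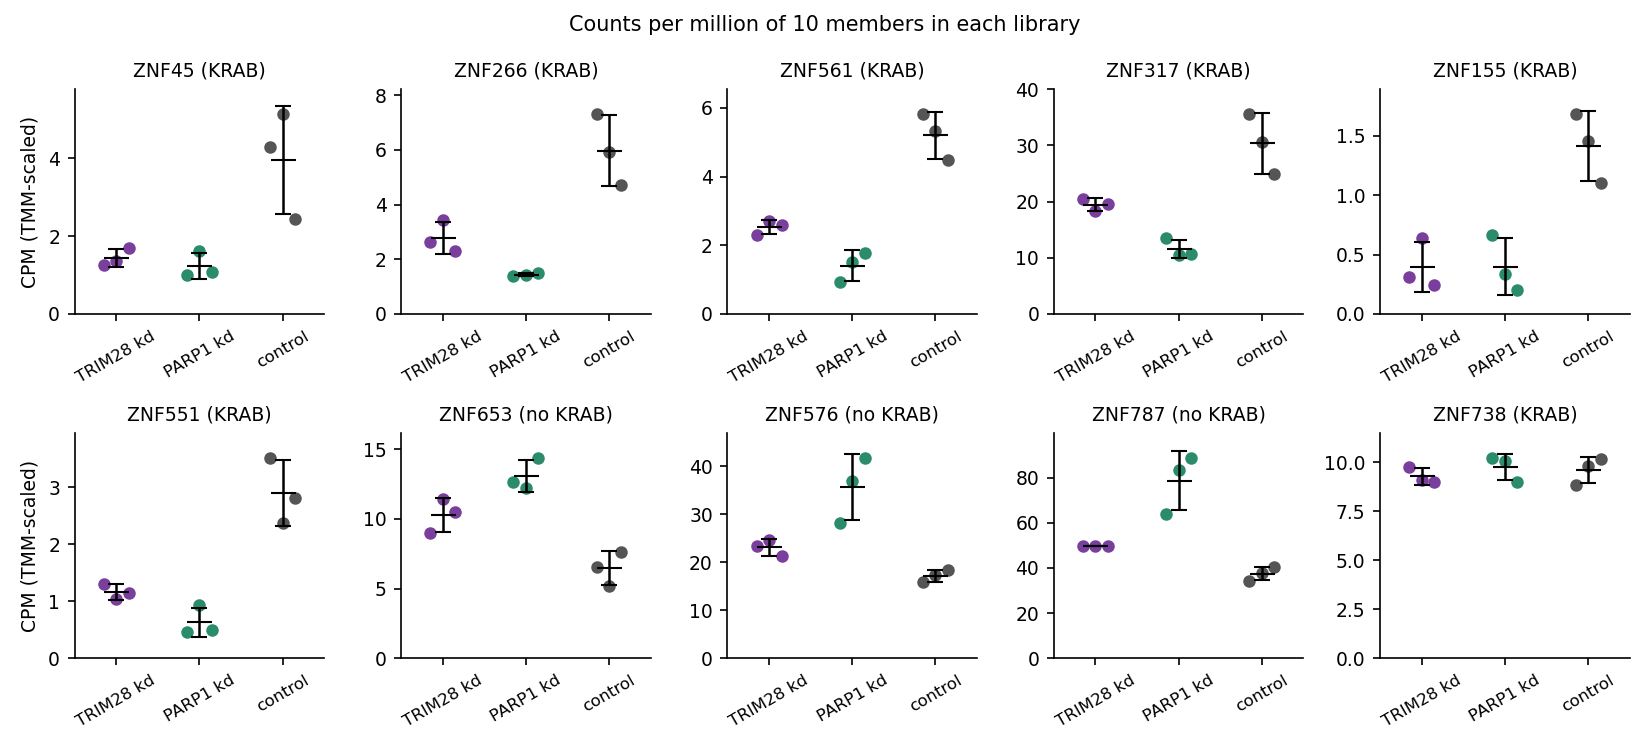
TMM-scaled CPM of 10 members in each library, with TRIM28 knockdown, PARP1 knockdown and control from left to right; points are libraries and bars the mean and SD of 3, on linear axes from 0. The 6 KRAB members from ZNF45 to ZNF551 lie lower in both knockdowns than in every control library, ZNF653, ZNF576 and ZNF787 lie higher, and ZNF738 overlaps in the 3 groups.

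In PARP1 knockdown 38 members fell and 25 rose, 63 of 145, where 59.3% of all genes tested passed (27.1% higher and 32.2% lower). Of the 38 falls 35 were in KRAB members, and 15 of the 25 rises were in members without KRAB. Those falls were 30.4% of the KRAB members, slightly below the 32.2% of all genes tested. Those rises were 51.7% of the members without KRAB, against 27.1% of all genes tested. The median log2 fold change was -0.21 over the members, -0.32 over KRAB members and 0.59 over members without KRAB, against -0.07 over all genes tested. In 73 of the 145 members the PARP1 knockdown and control libraries did not overlap, a smaller share than the 8606 of 13562 genes tested (63.5%). When single libraries were left out, between 51 and 63 members passed, and 44 of the 63, 26 lower and 18 higher, passed in each of the 9 fits. With both trends removed 27 rose and 14 fell, so the balance of the calls turned over, and 27 of the 63 calls were kept. Of the 13390 tested genes with a GC content, 3285 rose and 3047 fell in that fit. Raw library totals in place of the factors gave 10 rises and 48 falls, and 6 of the 14 changes without KRAB were then falls.

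ZNF304 had the lowest log2 fold change among the members in PARP1 knockdown that passed without overlap, at 0.596, 0.846 and 0.693 CPM in PARP1 knockdown against 3.32, 5.23 and 1.84 CPM in control. The groups did not overlap although the controls spread widely, and the log2 fold change was -2.28 ± 0.42 (adjusted p = 4.66e-05, edgeR). ZNF551 followed with 0.464, 0.930 and 0.495 CPM in PARP1 knockdown against 3.51, 2.37 and 2.81 CPM in control, which gave -2.20 ± 0.39 on the log2 scale (adjusted p = 2.97e-05, edgeR). Both remained past the threshold with trends removed (-1.75 and -1.64). Beside ZNF266 and ZNF561, the named falls included ZNF383 (-2.01 ± 0.52), ZNF331 (-1.98 ± 0.63), ZNF555 (-1.77 ± 0.48) and ZNF155 (-1.72 ± 0.51), and ZNF331 was at 0 reads in PARP1 knockdown replicate 3. After removal of the trends ZNF383 (-1.28), ZNF331 (-1.26) and ZNF555 (-0.98) lost their calls. ZNF274, chosen after its values were seen because its protein is known to bind the 3′ ends of other zinc finger genes and to bring SETDB1 there, fell by 0.86 on the log2 scale in PARP1 knockdown (SE 0.20, adjusted p = 0.000744, edgeR). It held 9.15, 9.48 and 9.64 CPM in TRIM28 knockdown, 8.28, 6.00 and 4.75 CPM in PARP1 knockdown and 10.97, 12.5 and 11.5 CPM in control.

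ZNF681, a KRAB member, had the highest log2 fold change of those that rose in PARP1 knockdown, at 0.861, 1.18 and 1.39 CPM against 0.289, 0.484 and 0.230 CPM in control. The groups did not overlap, and the log2 fold change was 1.73 ± 0.52 (adjusted p = 0.0056, edgeR). ZNF836 (1.51 ± 0.52), ZNF837 (1.29 ± 0.44), ZNF787 (1.07 ± 0.14), ZNF576 (1.04 ± 0.16), ZNF653 (1.01 ± 0.19), ZNF682 (0.97 ± 0.37) and ZNF784 (0.96 ± 0.25) completed the named rises. These fell into separate kinds with the trends removed. The KRAB members kept their calls and moved up, ZNF681 to 2.23, ZNF836 to 2.11 and ZNF682 to 1.5. Of the members without KRAB, ZNF576 (1.10) and ZNF787 (0.36) kept theirs, and ZNF837 (0.25), ZNF653 (0.29) and ZNF784 (-0.02) did not.

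By position the members form 21 blocks of numbered ZNF genes whose starts lie less than 0.5 Mb apart, counted on all 263 such genes. Members lie in 17 of these blocks, and 10 blocks with at least 3 members hold 135 of the 145. The lowest block median in TRIM28 knockdown was in block 3, at chr19:8509678-9793180 on the short arm. Of its 11 members 7 fell in TRIM28 knockdown, with a median of -0.996, and 5 fell and 1 rose in PARP1 knockdown, with a median of -0.88. The 7 were ZNF426, ZNF266, ZNF558, ZNF561, ZNF121, ZNF699 and ZNF317, of which ZNF121 has no KRAB domain by the pattern. The exception at the edge of the block was ZNF414, without KRAB, with 0.53 ± 0.23 in TRIM28 knockdown, which did not pass, and a rise of 0.91 ± 0.22 in PARP1 knockdown. With both trends removed the rise of ZNF414 did not pass, and the PARP1 knockdown calls of the block were 3 falls, all in KRAB members. The block had 2 falls in TRIM28 knockdown without control replicate 1, 4 when control replicate 2 or replicate 2 of TRIM28 knockdown was left out, and 3 with both trends removed, at a median of -0.56.

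Block 7, at chr19:19668796-24129968 on the pericentromeric side of the short arm, stood apart from block 3 although 18 of its 19 members are KRAB members. In TRIM28 knockdown 0 of 19 passed by edgeR (2 were higher at an unadjusted p below 0.05, and 0 passed by DESeq2), with a median of 0.04. In PARP1 knockdown 4 rose and 1 fell, with a median of 0.13, and the rises were ZNF681, ZNF431, ZNF682 and ZNF626. Raw library totals gave 2 rises and 2 falls there. ZNF626 held 4.67, 4.38 and 4.28 CPM in TRIM28 knockdown, 4.97, 7.10 and 8.21 CPM in PARP1 knockdown and 3.99, 3.05 and 3.41 CPM in control. No library of either knockdown overlapped the controls, and the change passed in PARP1 knockdown (0.94 ± 0.24) but not in TRIM28 knockdown (0.35 ± 0.24). Members of the block have the lowest median GC content of the 10 blocks, 37.6% against 43.0% in block 3. With both trends removed the block had 5 rises in TRIM28 knockdown and 10 in PARP1 knockdown. Without control replicate 2, 1 passed in TRIM28 knockdown. ZNF91 and ZNF93, which repress SVA and LINE-1 elements and were chosen here for that role after their values were seen, lie in this block. ZNF91 held 3.24, 2.47 and 2.59 CPM in TRIM28 knockdown, 2.32, 3.55 and 3.07 CPM in PARP1 knockdown and 2.89, 2.08 and 2.26 CPM in control, and neither change passed (0.20 ± 0.29 and 0.30 ± 0.29), while with both trends removed the PARP1 knockdown value was 0.99 and passed. ZNF93 gave -0.29 ± 0.32 and -0.04 ± 0.32.

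Block 20, at chr19:55476617-56671783, holds 9 members without KRAB among its 11, and by edgeR none of its members was lower in either knockdown, also at an unadjusted p below 0.05. In PARP1 knockdown 8 of 11 rose, with a median of 0.66, and in TRIM28 knockdown ZNF787 alone rose, with a median of 0.15. The other 7 were ZNF784 (0.96), ZNF524 (0.74), ZNF581 (0.69), ZNF71 (0.68), ZNF444 (0.66), ZNF579 (0.59) and ZNF580 (0.53). ZNF580 and ZNF581 overlap each other and CCDC106 on the same strand, so their reads are uncertain. The median GC content of the block's members is 64.8%, and with both trends removed 3 rises remained, at a block median of -0.13. ZNF784 (-0.02), ZNF579 (-0.13), ZNF581 (-0.21) and ZNF580 (-0.26) then turned sign without passing. ZNF580 was then lower in TRIM28 knockdown (-0.55, adjusted p = 0.0459, edgeR). The TRIM28 knockdown call of ZNF787 ended without any 1 of the 3 TRIM28 knockdown libraries or of control replicates 1 and 2. With raw library totals 3 of the 8 rises in PARP1 knockdown remained (ZNF581, ZNF784 and ZNF787), and the TRIM28 knockdown rise of ZNF787 did not. Of 7 other tested genes that start in the block 5 rose in PARP1 knockdown.

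Block 21, at chr19:57191500-58481230 near the end of the long arm, is the largest by members, 33, of which 28 are KRAB members. In PARP1 knockdown 15 fell and 3 rose, with a median of -0.69, and in TRIM28 knockdown 5 fell and 0 rose by edgeR (1 was higher at an unadjusted p below 0.05, and 1 by DESeq2), with a median of -0.38. ZNF551, ZNF304, ZNF587, ZNF548 and ZNF8 were the falls in TRIM28 knockdown, and all 5 fell in PARP1 knockdown as well. Without control replicate 1 none of the 33 passed in TRIM28 knockdown and without control replicate 2, 1 did, against 2 without TRIM28 knockdown replicate 2 or 3 and 9 without control replicate 3, while in PARP1 knockdown between 13 and 18 passed when single libraries were left out. With both trends removed 1 fell in TRIM28 knockdown, and 7 fell and 2 rose in PARP1 knockdown. TRIM28 itself starts 62834 bases past the end of this block, and in PARP1 knockdown it was at 124% of the control mean. The log2 fold change of TRIM28 in PARP1 knockdown was 0.31, which passed, and -0.21 with both trends removed, which did not.

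Block 14, at chr19:43525497-44500524, held changes of both signs within 8 members. ZNF576 and ZNF428, without KRAB, rose in both knockdowns, and the KRAB members ZNF45 and ZNF155 fell in both. ZNF428 held 19.2, 21.8 and 16.6 CPM in TRIM28 knockdown, 20.9, 26.6 and 26.2 CPM in PARP1 knockdown and 10.5, 12.2 and 15.4 CPM in control, without overlap, and its PARP1 knockdown change of 0.94 ± 0.17 became -0.05 with both trends removed. With both trends removed the block had 1 rise and 2 falls in TRIM28 knockdown and 3 rises and 2 falls in PARP1 knockdown. The 5 calls of the block in TRIM28 knockdown became 1 without control replicate 1, 3 when control replicate 2 or replicate 1 of TRIM28 knockdown was left out, and 2 when replicate 2 or 3 of TRIM28 knockdown was. Block 19, at chr19:51571283-53580269, had 2 of 26 members lower and 0 higher in TRIM28 knockdown by edgeR (4 lower and 0 higher at an unadjusted p below 0.05) and 3 higher and 5 lower in PARP1 knockdown. ZNF175, a KRAB member known to repress the HIV-1 long terminal repeat, led its falls in PARP1 knockdown (-1.34 ± 0.31). After removal of both trends the PARP1 knockdown count there became 5 higher and 0 lower. When single libraries were left out, the block had between 0 and 4 calls in TRIM28 knockdown, with 0 when the library left out was replicate 1 or 2 of control or replicate 2 or 3 of TRIM28 knockdown, and it had 5 in PARP1 knockdown without PARP1 knockdown replicate 1 or 3 or control replicate 2.

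The remaining blocks with at least 3 members were blocks 1, 4, 10 and 11. Block 4 (chr19:11483427-12640098) had 1 rise and 2 falls in TRIM28 knockdown and 1 rise and 3 falls in PARP1 knockdown among 8 members, with ZNF653 the rise and ZNF627 and ZNF791 among the falls of both. ZNF627 overlaps ACP5 on the opposite strand. The block had 1 call in TRIM28 knockdown when replicate 1 or 2 of control or replicate 2 of TRIM28 knockdown was left out, and with both trends removed 1 fall in TRIM28 knockdown and no call in PARP1 knockdown. Block 11 (chr19:36182276-37817300) had 0 of 13 past the threshold in TRIM28 knockdown by edgeR (2 lower at an unadjusted p below 0.05, and 0 by DESeq2) and 3 falls in PARP1 knockdown, and block 1 (chr19:2819868-2944971) had 2 of 3 lower in PARP1 knockdown, led by ZNF555, with a median of -1.06. Removal of both trends turned the PARP1 knockdown count of block 11 to 2 higher and 0 lower by edgeR and left 1 of the 2 falls of block 1. Block 10 (chr19:34542462-34964229) had none of 3 in either comparison by edgeR or DESeq2, also at an unadjusted p below 0.05, although 1 fell in PARP1 knockdown with raw library totals, with ZNF792 at -0.23 ± 0.26 in TRIM28 knockdown and -0.36 ± 0.27 in PARP1 knockdown. Blocks 20 and 21 join when gaps of up to 1 Mb are allowed, and the 44 members of the joined block then hold 11 rises and 15 falls in PARP1 knockdown.

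**Figure D3:**
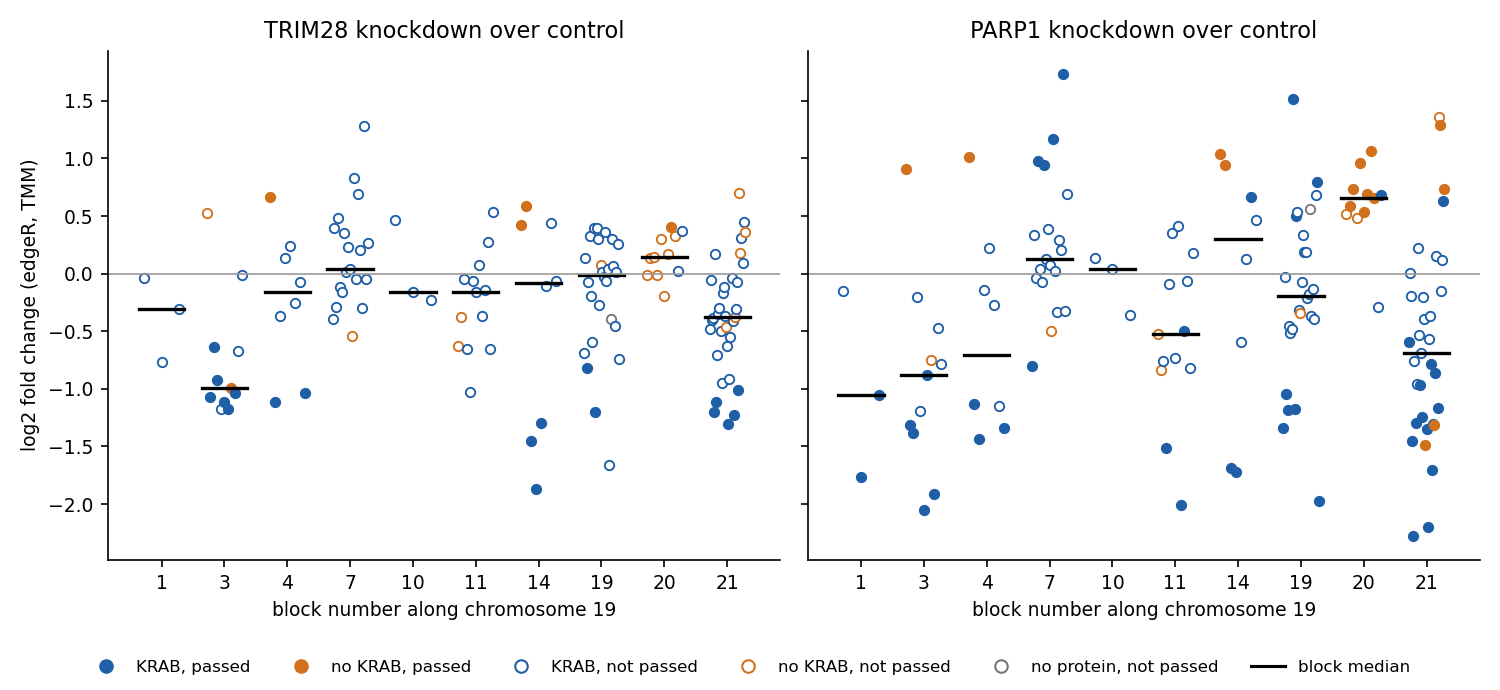
Log2 fold change of each member over control in TRIM28 knockdown (left) and PARP1 knockdown (right), by position block from the start of chromosome 19 on, for the 10 blocks with at least 3 members; filled points passed the threshold, colours give the class and bars the block median. Block 3 has the lowest TRIM28 knockdown median (-0.996), block 7 lies around 0, and block 20 lies above 0 in PARP1 knockdown (0.66).

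Both comparisons share the control libraries, so the number of members past the threshold in both is not given as a result, and the values of the named members are set side by side. On the log2 scale ZNF627 stood at -1.12 in TRIM28 knockdown and -1.13 in PARP1 knockdown, ZNF548 at -1.11 in TRIM28 knockdown and -1.29 in PARP1 knockdown, and ZNF558 at -1.07 in TRIM28 knockdown and -1.32 in PARP1 knockdown, each past the threshold. ZNF548 and ZNF558 passed in neither knockdown after removal of both trends, and ZNF627 passed in TRIM28 knockdown (-0.86) but not in PARP1 knockdown (-0.63). ZNF473, chosen after its values were seen, encodes a protein of the U7 snRNP pathway that processes histone messenger RNA, and it has no KRAB domain by the pattern. It fell by 0.70 in TRIM28 knockdown (SE 0.23) and by 1.24 in PARP1 knockdown (SE 0.24) on the log2 scale. Removal of both trends ended its TRIM28 knockdown call (-0.46) and kept its PARP1 knockdown call (-0.73).

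The comparison of TRIM28 knockdown with PARP1 knockdown has no control libraries in it. It had 7 members higher and 6 lower, 13 of 145, where 25.1% of all genes tested passed (13.2% higher and 11.9% lower), with a median log2 difference of -0.03. Raw library totals gave 10 higher and 2 lower, and the calls of ZNF358, ZNF579, ZNF580 and ZNF581 were lost. The 7 higher in TRIM28 knockdown were ZNF383, ZNF587B, ZNF134, ZNF266, ZNF329, ZNF561 and ZNF317, of which ZNF134 and ZNF329 have no KRAB domain by the pattern. ZNF134 held 5.11, 6.22 and 5.61 CPM in TRIM28 knockdown against 2.58, 4.23 and 1.39 CPM in PARP1 knockdown, a log2 difference of 1.03 ± 0.30 with no overlap. ZNF383 held 1.12, 0.956 and 1.33 CPM against 0.0662, 0.592 and 0.495 CPM, a log2 difference of 1.65 ± 0.55 with no overlap between the groups. This difference rests on low levels, with PARP1 knockdown replicate 1 the lowest. The ZNF383 call was lost by DESeq2, without that library, and without replicate 1 or 3 of TRIM28 knockdown. The 6 lower in TRIM28 knockdown were ZNF580 (-0.73), ZNF787 (-0.66), ZNF358 (-0.64), ZNF576 (-0.62), ZNF581 (-0.52) and ZNF579 (-0.45), all without KRAB. In 40 of the 145 members the libraries of the 2 knockdowns did not overlap, a smaller share than the 5345 of 13562 genes tested (39.4%).

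ZNF317, ZNF576 and ZNF787 passed in this comparison in each of the 9 fits that left out 1 library. The count was 4 without TRIM28 knockdown replicate 1, 21 without PARP1 knockdown replicate 1, 8 without PARP1 knockdown replicate 2 and 7 without PARP1 knockdown replicate 3. Removing both trends left 1 higher and 7 lower, and of the 13 only ZNF317 (0.57) and ZNF576 (-0.71) were kept, while ZNF358 (0.06) and ZNF579 (0.03) turned sign. Of the 13390 tested genes with a GC content, 983 were then higher and 1037 lower.

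Some members held steady. Among members with a mean of at least 100 reads, ZNF738, ZNF526 and ZNF544 had the smallest ranges over the 9 libraries. ZNF738, which has a KRAB A box and no finger in its longest annotated protein, held 9.77, 9.09 and 8.98 CPM in TRIM28 knockdown, 10.2, 10.1 and 9.00 CPM in PARP1 knockdown and 8.85, 9.78 and 10.2 CPM in control. All 3 groups overlapped, and the log2 fold changes were -0.05 ± 0.18 and 0.02 ± 0.18. ZNF526 (0.03 ± 0.14 and 0.33 ± 0.15) and ZNF544 (-0.07 ± 0.17 and 0.15 ± 0.17) did not pass by edgeR either, and each overlaps a tested gene on the opposite strand. Removal of both trends gave ZNF738 (0.68) and ZNF544 (0.83) rises in PARP1 knockdown, so that their steadiness holds as fitted only. ZNF526 rose in PARP1 knockdown by DESeq2 (0.38), with DESeq2 size factors in edgeR (0.38), with the length trend alone removed (0.41), with a replicate block (0.33) and when replicate 3 of control (0.44) or of TRIM28 knockdown (0.37) was left out. The largest ranges were in ZNF414, ZNF317 and ZNF653, described above. Near the count minimum, ZNF888 held 7, 0 and 5 reads in TRIM28 knockdown against 18, 18 and 17 reads in control, and its log2 fold change of -1.66 ± 0.63 did not pass (adjusted p = 0.0507, edgeR).

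Exon length and GC content moved with the class differences. Over the members without KRAB, Spearman's rho of the log2 fold change with GC content was 0.545 in TRIM28 knockdown and 0.659 in PARP1 knockdown (n = 29 genes), the direction found over all genes. Over the KRAB members it was -0.334 and -0.370 (n = 115 genes), the opposite direction. These rank correlations are across genes of the same libraries, which are not independent replicates. The 20 members without KRAB whose GC content lay above the median of all tested genes had median changes of 0.31 on the log2 scale in TRIM28 knockdown and 0.73 in PARP1 knockdown, and the other 9 had -0.46 and -0.75. With the length trend alone removed, the medians in PARP1 knockdown were -0.04 for KRAB members and 0.45 for members without KRAB, and with length and GC trends removed they were 0.25 and -0.02. In TRIM28 knockdown the medians with both trends removed were 0.07 for KRAB members and -0.09 for members without KRAB, so the class medians changed sides in both comparisons.

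**Figure D4:**
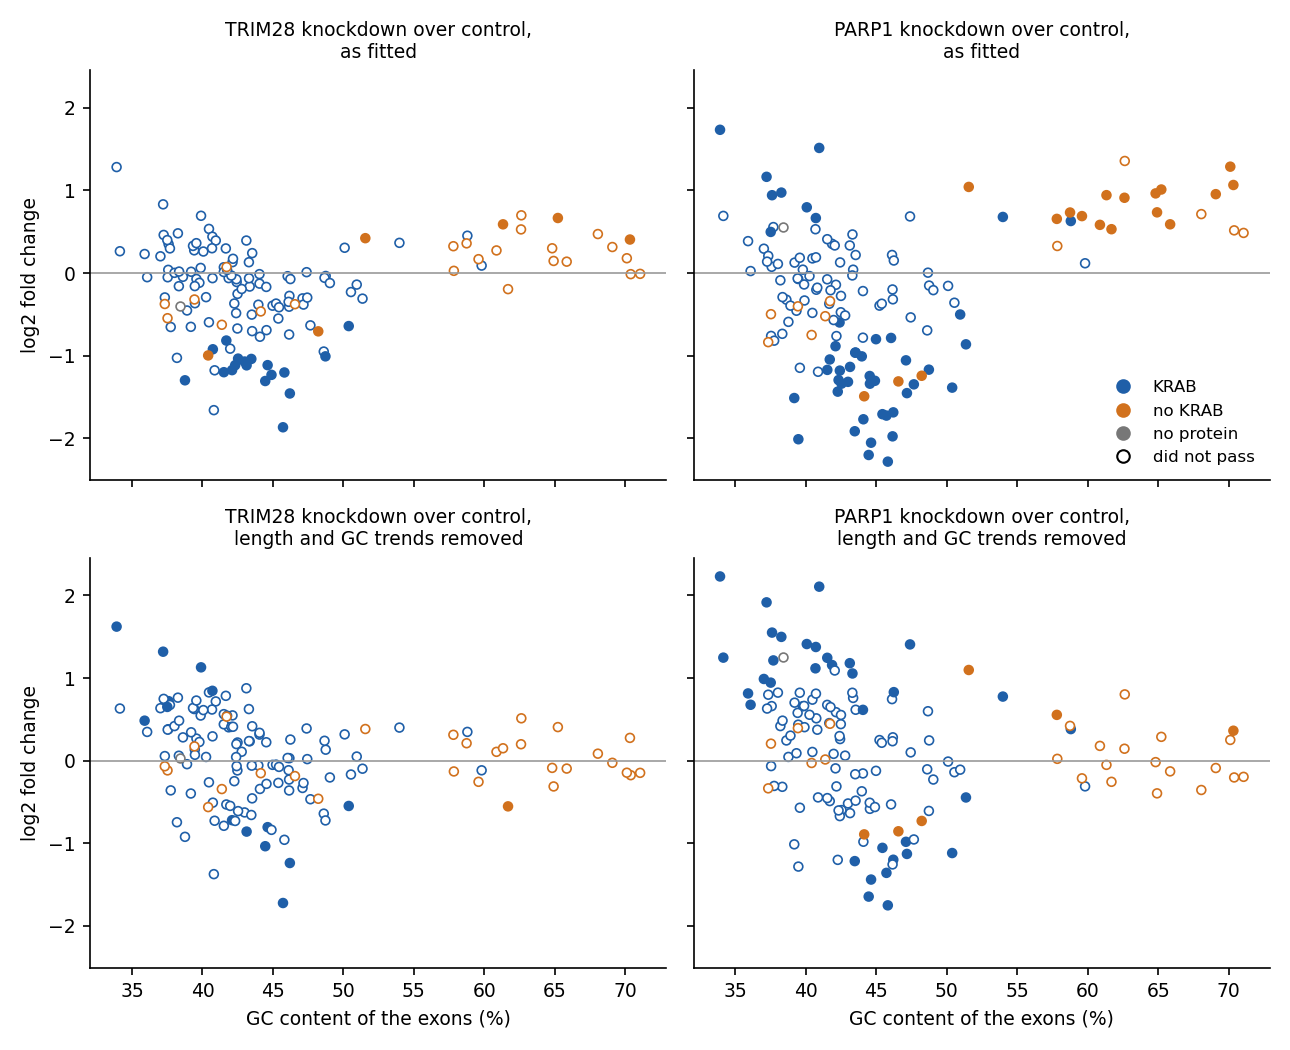
Log2 fold change over control against GC content (percent) for the 145 members, in TRIM28 knockdown (left) and PARP1 knockdown (right). Panels are as fitted (top) and with the length and GC trends of each library removed (bottom). Filled points passed the threshold. GC content is that of the longest annotated transcript, although the axis names the exons. As fitted, the members without KRAB at high GC content lie above 0 in PARP1 knockdown, and with trends removed they lie around 0, while ZNF155 and ZNF45 stay below -1 in all 4 panels.

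Genes elsewhere gave the same summary measures for reference. The 191 numbered ZNF genes on other chromosomes with the same count minimum had 4 higher and 33 lower in TRIM28 knockdown and 28 higher and 66 lower in PARP1 knockdown, with medians of -0.10 and -0.23. Among these, the 69 with KRAB had a PARP1 knockdown median of -0.01 and the 118 without KRAB -0.30, the reverse of the order on chromosome 19 as fitted. With both trends removed these medians were 0.11 for those with KRAB and -0.11 for those without, the same order as on chromosome 19. The 682 genes of chromosome 19 with no ZNF symbol and the same count minimum had 155 higher and 28 lower in TRIM28 knockdown and 391 higher and 51 lower in PARP1 knockdown, with medians of 0.26 and 0.60, which both trends removed brought to 0.07 and 0.09. No test of the members against these sets was made.

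Transcripts of the corepressor that KRAB proteins use were read beside the members. Of 38 tested genes of a list of TRIM28 partners, other than TRIM28, 15 fell in TRIM28 knockdown (39.5%, against 17.5% of all genes tested) and 23 did not pass, while 25 fell (65.8%, against 32.2%) and 2 rose in PARP1 knockdown. The list was drawn up with earlier results of these data known, and its genes are long, with a median of 7396 bases of exon. SETDB1, the methyltransferase, stood at 19.4 ± 1.45 CPM in TRIM28 knockdown, 10.7 ± 2.87 CPM in PARP1 knockdown and 34.0 ± 2.86 CPM in control (SD, n = 3), with log2 fold changes of -0.81 ± 0.17 and -1.66 ± 0.17. CBX1, an HP1 protein, stood at -0.71 ± 0.16 and -1.83 ± 0.17, and CHD4, the helicase of NuRD, at -1.35 ± 0.20 and -1.87 ± 0.21. These 3 genes passed in both knockdowns with both trends removed as well, SETDB1 at -0.62 and -1.26, CBX1 at -0.69 and -1.66 and CHD4 at -1.09 and -1.40. The other HP1 genes, CBX3 and CBX5, fell in both knockdowns as fitted but passed in neither with both trends removed. Of the other NuRD genes, CHD3 (-1.24 and -1.93), HDAC2 (-1.001 and -1.62), GATAD2B (-0.88 and -1.54) and MTA3 (-0.62 and -1.18) fell in both knockdowns. Each of them also passed in both with both trends removed. RBBP4 fell in both as fitted (-0.504 and -1.09) and passed in neither with both trends removed. HDAC1 stood at -0.00045 in TRIM28 knockdown and fell in PARP1 knockdown (-0.32). RBBP7 (-0.86) and MBD2 (-0.73) fell in PARP1 knockdown alone, and MTA1, MTA2 and GATAD2A passed in neither. The 2 rises in PARP1 knockdown were MBD3 (1.09), also of NuRD, and SUV39H1 (0.62). With both trends removed MBD3 (0.83) still passed and SUV39H1 (0.18) did not. With both trends removed 9 of the 38 fell in TRIM28 knockdown, against 1442 of the 13390 tested genes with a GC content. In PARP1 knockdown 12 of the 38 then fell, against 3047 of those 13390 genes.

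Reads of some members are uncertain. Of the 145, 15 share at least 10% of their 100-base transcript windows with another annotated gene and 87 share none, and ZNF468 and ZNF320 share 99.1% and 99.5% with each other and passed in neither knockdown. Of the members, 18 overlap a tested gene on the same strand, 18 one on the opposite strand and 111 none. The library kit marks strand, and no source used here says whether counting used it.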

How the data were processed

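Poly(A) RNA of 786-O cells was sequenced in 3 groups of 3 libraries. Per the submitters' processing notes, the authors used STAR 2.7.9a and featureCounts 2.0.1 on GRCh38, beside Trim Galore 0.6.6 and FastQC 0.11.9 for the reads and R 4.0.3 with DESeq2 1.30.0, and the deposited table gives raw counts per gene. The same deposited table gives FPKM values, computed by the authors from counts, exon lengths and library totals.

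All 9 libraries entered a single edgeR 4.0.16 quasi-likelihood fit (TMM factors, filterByExpr, 3 groups, R 4.3.3) with Benjamini-Hochberg adjustment over 13562 genes and a threshold of 0.05. CPM values are scaled by the TMM factors and their errors are SDs. Length and GC trends were lowess curves per library (span 0.3) used as offsets. KRAB class, finger number, GC content and shared windows came from GENCODE release 29, and promoters from RefSeq. Alternatives used DESeq2 1.42.0 and limma 3.58.1 on log2(FPKM + pseudocount). The fit was tested on simulated data.

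Members and lists were chosen with earlier results of these data known. Genes were named by rank among called members without overlap (up to 8 per direction and comparison), the 6 highest FPKM, the smallest p per block, joint calls (up to 8 per direction), the 3 on each side of the count minimum, and the 3 largest and 3 smallest ranges, and others are said to be chosen after their values were seen or stand in a complete list. Within each group no libraries were duplicates of each other, with a chi-square per degree of freedom between their counts of 4.99 to 52. Libraries of different groups were not compared in this way.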

Additional observations from a re-analysis of the deposited data

How the results depend on the processing

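In TRIM28 knockdown against control, 24 members passed. This count was 15 with length and GC trends removed, 7 and 9 by limma on log2(FPKM + 0.1) and log2(FPKM + 1) after a filter at an FPKM of 0.5 on the mean, which tests 52 members, and 11 by limma with no filter, and 4 to 31 with single libraries left out. In PARP1 knockdown against control the 63 became 41 with both trends removed and 28 by limma with either pseudocount and that filter, and 51 to 63 with single libraries left out. Between TRIM28 knockdown and PARP1 knockdown the 13 became 8 with both trends removed, 8 by limma on log2(FPKM + 1) with the filter, 0 by limma with no filter (30 at an unadjusted p below 0.05, where edgeR had 18 higher and 14 lower and DESeq2 13 higher and 16 lower at the same unadjusted level), and 4 to 21 with single libraries left out. DESeq2 called 22, 65 and 14 in the same order. Removing both trends turned the PARP1 knockdown log2 fold changes of ZNF358 (-0.0887), ZNF428 (-0.0507), ZNF579 (-0.13), ZNF784 (-0.0174), ZNF580 (-0.26) and ZNF581 (-0.21), and the TRIM28 knockdown against PARP1 knockdown values of ZNF358 (0.0630) and ZNF579 (0.0339). The causes of the limma differences were not tested. Raw library totals put the median of all genes at -0.18 in TRIM28 knockdown (-0.02 with TMM), -0.39 in PARP1 knockdown (-0.07 with TMM) and 0.20 between the knockdowns (0.03 with TMM), and the members at -0.26, -0.54 and 0.15 in the same order. The labels do not say whether replicate numbers pair libraries. Correlations of deviations between groups ran from -0.0814 to 0.141 for the same number and from -0.164 to 0.118 for different numbers. All same-number values with a control library were positive, so pairing is not settled. A replicate block gave 26, 65 and 15 calls. Low counts limit precision, since 72 of the members had under 30 reads.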

Other observations

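Beyond the numbered ZNF genes, 52 other zinc finger symbols of chromosome 19 (ZFP, ZSCAN, ZNF antisense and divergent transcripts) were looked up, of which 15 were tested. In TRIM28 knockdown 0 passed by edgeR, 0 by DESeq2 and 0 at an unadjusted p below 0.05. In PARP1 knockdown 1 passed, ZNF132-DT at -1.71 (adjusted p = 0.0237, edgeR), and DESeq2 called 1 higher and 1 lower. Removal of both trends ended the ZNF132-DT call (-1.44, adjusted p = 0.0753, edgeR). In PARP1 knockdown ZNF433-AS1 (0.79) and ZNF561-AS1 (1.41) were then higher and ZNF584-DT (-1.03) lower. ZNF561-AS1 (0.76) was then higher in TRIM28 knockdown as well.

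Of the 118 numbered ZNF genes of chromosome 19 below the count minimum, 9 were tested. One of these fell in PARP1 knockdown.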
